A study of Mus musculus with 12 samples.

Results

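Integrin subunits and laminin chains were examined in mouse neural progenitor cells (NPCs) whose actin and Srf pathway had been manipulated. The members are all array probes of genes named Itga or Itgb with a subunit number or letter, and of genes named Lama, Lamb or Lamc with a chain number, without integrin-binding proteins. Of 37 such genes in the RefSeq reference, 35 had a named probe, among 21154 genes named on the array. They comprised 24 integrin subunits on 33 probes and 11 laminin chains on 13 probes, together 46 of 55681 probes. Itga10 and Itgae had no named probe.

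The series holds 12 single-colour Agilent arrays of total RNA, in 6 groups of 2 arrays. NPCs had been differentiated in vitro from mouse embryonic stem cells and were kept on gelatin with EGF and bFGF, so the samples are cultures and not animals. The NPC lines named in the methods for molecular work, NSEB5-2C and N31, share a drug-resistance gene at Oct4, and N31 also carries doxycycline-inducible reprogramming transgenes. The labels do not say which line was put on the arrays. In the overexpression experiment the cells received retroviral EGFP (the control), Mkl1 or Srf, and in the knockdown experiment a retroviral vector for a short hairpin that targets EGFP (shEGFP, the control) or the β-actin gene Actb, by 1 of 2 hairpins (shActb_1 and shActb_2). Srf is a transcription factor that binds CArG boxes, and its cofactor Mkl1 is held back by monomeric actin.

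Integrins are cell-surface receptors built from an α and a β subunit, and they tie the extracellular matrix to the actin cytoskeleton through talin, kindlin and related adaptors. Laminins are trimers of an α, a β and a γ chain that polymerize into basement membranes. In the developing brain, neural progenitors touch a laminin-rich basement membrane with their end-feet and bind it largely through Itgb1 paired with Itga6 or Itga3.

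Levels below are log2 signals relative to the 75th percentile of the array, and differences are between group means on that scale. Between 59.3% and 72.5% of probes per array were well above background, and both ends were shActb_2 arrays (72.5% in replicate 1 and 59.3% in replicate 2). Duplicate arrays correlated at r = 0.993 to 0.998. The median difference between duplicates over the member probes above background was 0.26 in EGFP and 0.07 to 0.11 in the other groups. The study describes the Actb array duplicates as technical, so p-values measure array-to-array spread, and 2 arrays per group limit the precision. Actb fell by 0.53 on the log2 scale with shActb_1 and by 0.65 with shActb_2 (limma, adjusted p = 0.00128 and 0.000197). The Srf probes went against their label: on the arrays labelled Srf both differed from EGFP downwards (-2.46 and -1.40, adjusted p = 2.54e-06 and 0.000266), and the Mkl1 gene (now Mrtfa) differed by 0.20 and 0.17 at its 2 probes on the arrays labelled Mkl1, without passing the test (adjusted p = 0.12 and 0.312). Where these probes lie relative to the introduced reading frames was not tested, so directions below belong to the arrays labelled Srf and Mkl1. All 8 neural progenitor markers, among them Nes, Sox2 and Pax6, were well above background on every array. By the call rule given below, Sox2 was lower for Srf and shActb_1, Slc1a3 lower for Mkl1 and both hairpins, Fabp7 lower for shActb_1 and Nes higher for Mkl1, and the part of these changes in the member values was not tested.

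Most of the integrin and laminin genes were detected in these cells. Of the 24 integrin genes, 18 were well above background on all 12 arrays, as were 10 of the 11 laminin genes, each judged at its brightest probe, which stands for the gene in all counts. Itgad, Itgax and Lama1 were not well above background on any array, Itga4 was so on 2, Itgb6 on 3, and Itga2 and Itgb8 on 8. Lama1, the α chain of early embryonic basement membranes, read between -7.51 and -5.18. The chains of the widespread laminin trimer, Lama5, Lamb1 and Lamc1, were above background throughout. No member probe was saturated.

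A gene was tested where both arrays of a compared group were well above background, and a call needed a fold over 2 together with an adjusted p (limma, Benjamini-Hochberg over all probes tested) under 0.05. On the arrays labelled Srf, 4 of 30 tested members were called, all higher than EGFP (Itga1, Itga5, Lama4 and Lamc3), where 7.00% of all genes tested were called (4.40% higher and 2.61% lower). On the Mkl1 arrays 7 of 30 were called, with Itga1, Itga5, Itga6, Itgb3 and Lamc3 higher and Itga8 and Lama2 lower, against 3.84% of all genes (1.88% higher and 1.97% lower). With shActb_1, 3 of 29 were called (Itgb3 and Lamc3 higher, Itga8 lower), against 2.40% (0.744% higher and 1.65% lower). With shActb_2, 3 of 30 were called (Itga6, Itgb2 and Lamc3, all higher), against 5.76% (2.40% higher and 3.36% lower). The median difference over the members tested was -0.11 for Srf, 0.12 for Mkl1, 0.11 for shActb_1 and 0.15 for shActb_2, beside -0.01, 0.02, 0.02 and 0.07 over all genes tested. Itga2 for Mkl1, Itga4 for shActb_2 and Itgb8 in all 4 treatments were tested because 1 side was bright enough, and none of these was called. Each pair of treatments shares its control arrays, so a gene called in both treatments of an experiment is not independent evidence. In these bulk cultures, fewer cells of a type and less RNA per cell cannot be told apart. The 4 neuron markers summed to 7.13 to 8.29 times the 75th-percentile signal in EGFP, 2.77 to 3.20 with Mkl1, 2.53 to 2.69 with Srf, 6.71 to 6.86 in shEGFP and 2.92 to 3.23 with the hairpins, and the members of the list did not all move alike. Stmn2 was called lower in all 4 treatments (-3.88 for Srf), Map2 lower for Mkl1 and both hairpins, and Tubb3 higher for Srf (1.53, adjusted p = 9.26e-05, limma). The part of these markers in the member values was not tested.

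**Figure D1:**
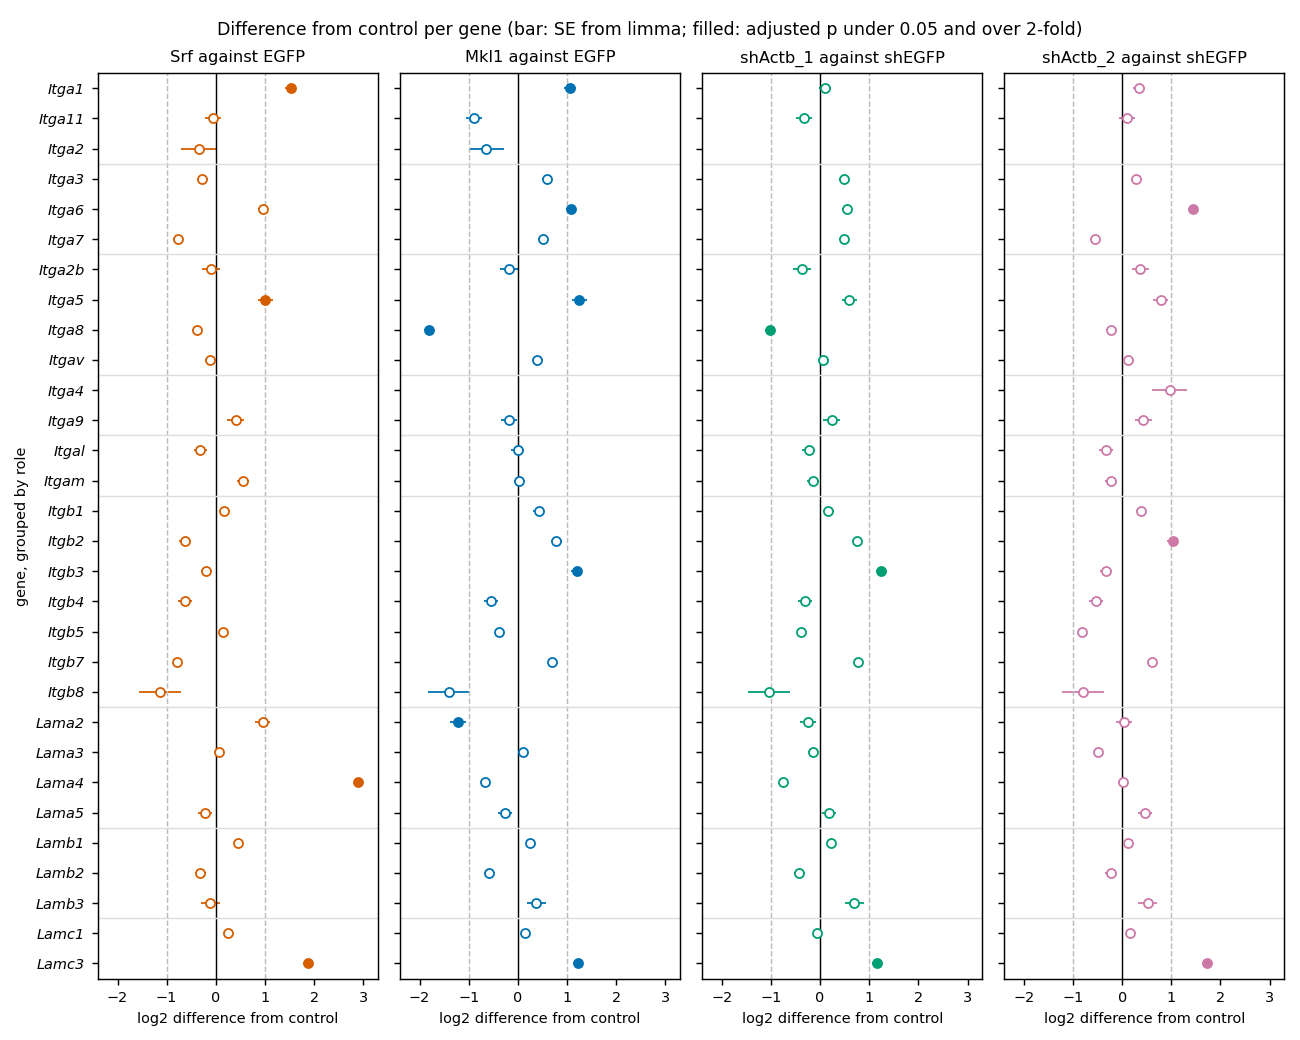
Differences of tested integrin and laminin genes from the control of its experiment, as log2 of the signal ratio (horizontal axis), for the 4 treatments (panels), with genes ordered by role on the vertical axis. Points are differences between means of 2 arrays, bars are standard errors from limma, dashed lines mark 2-fold, and filled points were called changed: 4 for Srf, 7 for Mkl1, 3 for shActb_1 and 3 for shActb_2.

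The γ chain Lamc3 was higher than control in all 4 treatments. This chain is found in brain, retina and other tissues and joins fewer known laminin trimers than Lamc1. On the EGFP arrays Lamc3 read -3.82 and -3.61, on the Srf arrays -1.81 and -1.88, and on the Mkl1 arrays -2.54 and -2.46. On the shEGFP arrays it read -4.08 and -4.17, with shActb_1 -3.07 and -2.88, and with shActb_2 -2.32 and -2.46. Every treated array lay above both arrays of its control. The difference was 1.87 ± 0.10 (SE; 3.65-fold) for Srf (adjusted p = 3.04e-05, limma) and 1.22 ± 0.10 (2.33-fold) for Mkl1 (adjusted p = 0.000477). It was 1.15 ± 0.10 (2.22-fold) for shActb_1 (adjusted p = 0.000785) and 1.73 ± 0.10 (3.33-fold) for shActb_2 (adjusted p = 6.84e-05). Lamc3 was the only member called in all 4 comparisons. With normexp background correction the Mkl1 difference was 0.73 and the shActb_1 difference 0.70, both below 2-fold, and with the Mkl1 and EGFP arrays fitted alone the adjusted p was 0.0635.

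Lamc1, the γ chain of most laminins, differed from control by -0.06 to 0.24 and was not called. The β chains did not pass the call rule either. Lamb1 differed by 0.44 ± 0.05 (SE) for Srf (adjusted p = 0.000837, limma), 0.25 for Mkl1, 0.23 for shActb_1 and 0.12 for shActb_2. Lamb2, a β chain of mature basement membranes at the neuromuscular junction and kidney filter, differed by -0.58 to -0.24 over the treatments. Its largest difference was on the Mkl1 arrays (-0.58 ± 0.11, adjusted p = 0.0117, limma). Lamb3 differed by 0.70 with shActb_1 (adjusted p = 0.0664) and by -0.11 to 0.52 in the other treatments.

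Among the α chains, Lama4 showed the largest difference of all members. Lama4 is an α chain of mesenchymal, muscle and vascular basement membranes. It read -3.50 and -3.31 on the EGFP arrays, -0.55 and -0.48 on the Srf arrays, and -4.08 on both Mkl1 arrays. The arrays labelled Srf stood 2.90 ± 0.09 (SE) above EGFP, which is 7.44-fold (adjusted p = 6.27e-06, limma), while Mkl1 stood at -0.67 ± 0.09 (adjusted p = 0.00281), short of 2-fold. In the knockdown experiment Lama4 read -3.62 and -3.41 with shEGFP, -4.25 and -4.28 with shActb_1, and -3.49 and -3.53 with shActb_2. The shActb_1 arrays lay below shEGFP by less than 2-fold (-0.75 ± 0.09, adjusted p = 0.003), and the shActb_2 arrays overlapped the control (0.01 ± 0.09, adjusted p = 0.959). Of 4 fibroblast markers on the Srf arrays, Lum was called higher, by at least 17.3-fold. It entered the test only through the Srf arrays, where it was the higher, so its call is given as a description. Col1a2 was called lower (-1.10), while Dcn differed by 0.85 (adjusted p = 0.000111, limma) and Col1a1 by 0.44 (adjusted p = 0.208), short of the call rule. The summed level of the 4 was 60.3 to 61.7 times the 75th-percentile signal on the Srf arrays and 102 to 104 in EGFP, and Col1a2, which fell, made up 67.3% to 71.1% of it on the Srf arrays and 87.7% to 88.0% in EGFP, so the sum mostly follows that 1 gene. The endothelial markers Cdh5 and Tek were not well above background on any array, and the summed level of the 4 endothelial markers was 5.30 to 5.60 on the Srf arrays and 5.83 to 6.04 in EGFP, of which Kdr made up 95.0% to 96.3%. The part of fibroblast markers in the Lama4 difference was not tested.

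Lama2, the α chain of muscle and nerve basement membranes whose loss causes a congenital muscular dystrophy, lay on opposite sides of EGFP on the arrays labelled Srf and Mkl1. Its brighter probe read -2.41 and -2.90 on the EGFP arrays, -1.56 and -1.85 on the Srf arrays, and -3.80 and -3.95 on the Mkl1 arrays. The 3 groups did not overlap. The Mkl1 difference of -1.22 ± 0.16 (SE) was called (adjusted p = 0.00264, limma), and the Srf difference of 0.95 ± 0.16 fell just short of 2-fold (adjusted p = 0.00485). At the second Lama2 probe both were called, at 1.27 ± 0.17 for Srf (adjusted p = 0.00147, limma) and -1.48 ± 0.17 for Mkl1 (adjusted p = 0.00147, above background on 1 of 2 Mkl1 arrays). That probe entered the Mkl1 test only through the EGFP arrays, where it was the higher, so its Mkl1 call is given as a description. With normexp background correction the Mkl1 difference was -0.60 and -0.47 at the 2 Lama2 probes and the Srf difference 0.84 at the second, without EGFP replicate 1 the Mkl1 difference was -0.98 at the brighter probe, and with the compared arrays alone its adjusted p was 0.0879 and 0.0744, each of which ends the call. The Srf difference at the brighter probe was called without EGFP replicate 1 (1.19) and without Srf replicate 2 (1.09). The fibroblast marker Dcn lay on the same sides of EGFP, at 0.85 for Srf, short of 2-fold, and at -1.79 for Mkl1 (adjusted p = 1.54e-05, limma), where it was the 1 called fibroblast marker. The summed level of the 4 fibroblast markers was 66.3 to 81.6 on the Mkl1 arrays, below the EGFP and above the Srf arrays, with Col1a2 at 88.9% to 91.1% of it and at -0.45 for Mkl1, short of 2-fold. The part of these markers in the Lama2 differences was not tested.

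With the hairpins the 2 Lama2 probes gave different answers. At the brighter probe the levels were -3.37 and -3.51 with shEGFP, -3.70 and -3.66 with shActb_1, and -3.38 and -3.43 with shActb_2, and no difference was called (-0.24 ± 0.16 and 0.04 ± 0.16). At the second probe the shActb_1 arrays were not well above background and lay at least 2.41-fold below shEGFP (adjusted p = 0.00258, limma), while shActb_2 differed by -0.20 ± 0.17. The second probe entered the shActb_1 test only through the shEGFP arrays, where it was the higher, so that call is given as a description. Under normexp background correction the shActb_1 difference at that probe was -0.39. Dcn was called lower with both hairpins, by 1.96 with shActb_1 (-1.96, adjusted p = 1.5e-05, limma) and by 1.55 with shActb_2 (-1.55, adjusted p = 2.34e-05), and the fibroblast markers summed to 84.5 to 93.3 in shEGFP, 69.3 to 75.4 with shActb_1 and 55.3 to 57.3 with shActb_2, with Col1a2 at 88.1% to 91.8% of these sums. Their part in the Lama2 values was not tested.

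Lama3, an epithelial α chain, also gave different answers at its 2 probes. The brighter probe differed from control by -0.48 to 0.11 and was never called. The second probe, which was dim, read -4.45 and -4.72 in EGFP and lay at least 1.86-fold lower on the Mkl1 arrays (adjusted p = 0.0277, limma), where it was not well above background. It was lower by 1.65 ± 0.30 (SE) on the log2 scale with shActb_1 (-1.65, adjusted p = 0.0151, limma) and by 1.79 ± 0.30 with shActb_2 (-1.79, adjusted p = 0.00315), with 1 of 2 arrays of each hairpin above background. This probe entered these tests only through the control arrays, where it was the higher, and the Mkl1 bound is under 2-fold. Its calls are therefore given as a description. With normexp background correction the hairpin differences at the second Lama3 probe were -0.54 and -0.65, below 2-fold. The Mkl1 call at that probe was also lost without EGFP replicate 1 (adjusted p = 0.118) or Mkl1 replicate 1 (0.131), and the shActb_1 call without either shEGFP array (0.0944 and 0.0758) or shActb_1 replicate 1 (0.0991). Lama5, the widespread α chain, differed by -0.26 to 0.47, with 0.47 ± 0.14 for shActb_2 (adjusted p = 0.034) as its largest difference. The 4 epithelial markers summed to 164 to 181 in EGFP, 319 to 331 with Mkl1, 94.5 to 98.0 in shEGFP, 197 with shActb_1 and 240 to 256 with shActb_2, and their part in the laminin values was not tested.

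Among the laminin receptors, Itga6 was higher in every treatment. Itga6 pairs with Itgb1 or Itgb4 and is a common surface marker of neural stem cells. It read 4.46 and 4.78 in EGFP, 5.57 on both Srf arrays, and 5.66 and 5.73 on the Mkl1 arrays. In the knockdown experiment it read 3.99 and 4.06 with shEGFP, 4.53 and 4.63 with shActb_1, and 5.48 on both shActb_2 arrays. No treated array overlapped its control. The differences of 1.08 ± 0.10 (SE; 2.11-fold) for Mkl1 (adjusted p = 0.00078, limma) and 1.45 ± 0.10 (2.73-fold) for shActb_2 (adjusted p = 0.000128) were called, and those of 0.95 ± 0.10 for Srf (adjusted p = 0.000582) and 0.55 ± 0.10 for shActb_1 (adjusted p = 0.0163) passed the p threshold below 2-fold. Under quantile normalization the Mkl1 difference of Itga6 was 0.97 and without EGFP replicate 1 it was 0.92, both below 2-fold, and with the compared arrays alone its adjusted p was 0.0759. The Srf difference was called without EGFP replicate 2 (1.11) and with normexp. Of 4 epithelial markers, Krt8 was called higher for Mkl1 (1.05), Krt18 for shActb_1 (1.07), and Cdh1 (1.05), Krt8 (1.05) and Krt18 (1.47) for shActb_2, and none was called for Srf. Their summed level was 164 to 181 times the 75th-percentile signal in EGFP, 319 to 331 with Mkl1, 182 to 187 with Srf, 94.5 to 98.0 in shEGFP, 197 with shActb_1 and 240 to 256 with shActb_2, of which Krt18 made up 70.5% to 81.2%. The part of these markers in the Itga6 differences was not tested.

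Itga3, the partner of Itgb1 that binds the laminins of epithelia and of the cortical basement membrane, differed by 0.59 ± 0.11 (SE) for Mkl1 (adjusted p = 0.00915, limma) and 0.49 ± 0.11 for shActb_1 (adjusted p = 0.0319). It differed by 0.29 for shActb_2 and -0.27 for Srf, without passing the test. Itga7, the laminin receptor subunit of muscle, read 1.55 and 1.77 in EGFP, 2.25 and 2.08 on the Mkl1 arrays, and 0.80 and 0.96 on the Srf arrays. It read 1.77 and 1.73 with shEGFP, 2.30 and 2.18 with shActb_1, and 1.13 and 1.26 with shActb_2. Itga7 therefore lay above control on the Mkl1 and shActb_1 arrays (0.51 ± 0.10 and 0.49 ± 0.11, adjusted p = 0.0145 and 0.0282) and below it on the Srf and shActb_2 arrays (-0.77 ± 0.10 and -0.56 ± 0.10, adjusted p = 0.00174 and 0.00503). All 4 of these differences were under 2-fold.

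The fibronectin receptor subunit Itga5, which pairs with Itgb1 and binds the RGD motif of fibronectin, was higher than EGFP on the arrays labelled Srf and Mkl1. It read -0.33 and 0.13 in EGFP, 0.77 and 1.04 on the Srf arrays, and 1.13 and 1.16 on the Mkl1 arrays. With shEGFP it read 0.01 and -0.03, with shActb_1 0.68 and 0.49, and with shActb_2 0.78 on both arrays. All treated arrays lay above their controls. The differences were 1.25 ± 0.15 (SE; 2.37-fold) for Mkl1 (adjusted p = 0.00206, limma) and 1.01 ± 0.15 (2.01-fold) for Srf (adjusted p = 0.00294), both called. They were 0.79 ± 0.15 for shActb_2 (adjusted p = 0.00588) and 0.59 ± 0.15 for shActb_1 (adjusted p = 0.0554), neither called. The Srf call of Itga5 sat at the 2-fold edge and was lost with normexp background correction (0.92), without EGFP replicate 1 (0.78) and without Srf replicate 2 (0.88), and with the compared arrays alone the adjusted p was 0.0796 for Srf and 0.0813 for Mkl1.

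Itga8, another RGD-binding partner of Itgb1 that binds nephronectin, fell with Mkl1 and with shActb_1. It read 2.20 and 1.97 in EGFP, 0.36 and 0.18 on the Mkl1 arrays, and 1.69 and 1.70 on the Srf arrays. With shEGFP it read 1.25 and 1.32, with shActb_1 0.33 and 0.22, and with shActb_2 1.07 and 1.05. All treated arrays lay below both control arrays. The Mkl1 difference was -1.81 ± 0.10 (SE; 3.52-fold lower, adjusted p = 8.1e-05, limma) and the shActb_1 difference -1.02 ± 0.10 (2.02-fold lower, adjusted p = 0.0011). The Srf difference was -0.39 ± 0.10 (adjusted p = 0.022) and that of shActb_2 -0.23 ± 0.10 (adjusted p = 0.0967). The shActb_1 call of Itga8 lay at the 2-fold edge and was lost without shEGFP replicate 2 (-0.98) or without shActb_1 replicate 2 (-0.96), and the Mkl1 call was lost with the compared arrays alone (adjusted p = 0.0508).

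Itgav, the αv subunit shared by several vitronectin and fibronectin receptors, differed by 0.40 ± 0.12 (SE) for Mkl1 at its brighter probe (adjusted p = 0.0492, limma) and by -0.11 to 0.12 in the other treatments. Its second probe differed by 0.64 ± 0.11 for Mkl1 (adjusted p = 0.00779) and 0.51 ± 0.11 for shActb_2 (adjusted p = 0.00967). Neither probe was called. Itga2b, the platelet fibrinogen receptor subunit, differed by -0.37 to 0.37 and was not called.

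Itga1, which pairs with Itgb1 and binds collagens and laminins, was called higher on the arrays labelled Srf and Mkl1 at its brighter probe. There it read -3.10 and -2.77 in EGFP, -1.43 and -1.40 on the Srf arrays, and -1.84 and -1.90 on the Mkl1 arrays. The differences were 1.52 ± 0.12 (SE; 2.87-fold) for Srf (adjusted p = 0.000155, limma) and 1.06 ± 0.12 (2.09-fold) for Mkl1 (adjusted p = 0.00147). With shEGFP it read -3.09 and -3.24, with shActb_1 -3.15 and -2.97, and with shActb_2 -2.76 and -2.90, and neither hairpin difference passed the test (0.11 ± 0.12 and 0.34 ± 0.12). The second, dimmer Itga1 probe overlapped EGFP in both overexpression groups, with differences of 0.00 ± 0.19 for Srf and -0.24 ± 0.19 for Mkl1, so the probes disagree. Averaged over both probes the Itga1 difference was 0.76 for Srf and 0.41 for Mkl1, each below 2-fold. The Mkl1 call was also lost without EGFP replicate 1 (0.90), with normexp (0.75) and with the compared arrays alone (adjusted p = 0.077). The other collagen receptor subunits, Itga2 and Itga11, were not called, at -0.34 and -0.06 for Srf and -0.64 and -0.89 for Mkl1, nor was Itga9, a tenascin and VCAM receptor subunit, at -0.18 to 0.43.

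Among the β subunits, Itgb1, the partner of most of the α subunits above, differed from control by 0.16 to 0.43 at its brighter probe. The Mkl1 difference of 0.43 ± 0.11 (SE, adjusted p = 0.0339, limma) and the shActb_2 difference of 0.38 ± 0.11 (adjusted p = 0.0287) passed the p threshold and stayed well under 2-fold. Its second probe differed by 0.07 to 0.39. Itgb5, which joins Itgav in a vitronectin receptor, read 5.38 on both shEGFP arrays and 4.55 and 4.56 with shActb_2, a difference of -0.82 ± 0.07 (adjusted p = 0.000226), and it differed by -0.39 for shActb_1, -0.38 for Mkl1 and 0.14 for Srf. Under quantile normalization the shActb_2 difference of Itgb5 was -1.02 and was called. Itgb4, the partner of Itga6 in hemidesmosomes, differed by -0.62 to -0.31 and was not called.

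Itgb3, which joins Itgav or Itga2b, rose with Mkl1 and with shActb_1 and with neither of the other treatments. It read -0.35 and -0.03 in EGFP, 1.10 and 0.90 on the Mkl1 arrays, and -0.38 and -0.39 on the Srf arrays. It read -0.07 on both shEGFP arrays, 1.26 and 1.09 with shActb_1, and -0.41 and -0.37 with shActb_2. The Mkl1 difference was 1.19 ± 0.12 (SE; 2.29-fold, adjusted p = 0.000897, limma) and the shActb_1 difference 1.25 ± 0.12 (2.37-fold, adjusted p = 0.00109). For Srf the difference was -0.19 ± 0.12 (adjusted p = 0.268) and for shActb_2 -0.32 ± 0.12 (adjusted p = 0.0603). The second Itgb3 probe gave the same signs below 2-fold, at 0.91 ± 0.19 for Mkl1 (adjusted p = 0.0158), 0.74 ± 0.19 for shActb_1 (adjusted p = 0.056), -0.07 for Srf and -0.39 for shActb_2. With the compared arrays alone the adjusted p of the Mkl1 difference was 0.0744, and averaged over both Itgb3 probes the shActb_1 difference was 0.99.

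Itgb2, the β subunit of the leukocyte integrins, rose with shActb_2. It read -2.42 and -2.34 with shEGFP, -1.77 and -1.49 with shActb_1, and -1.32 and -1.37 with shActb_2, a difference of 1.03 ± 0.11 (SE; 2.04-fold, adjusted p = 0.000533, limma) for shActb_2 and of 0.75 ± 0.11 (adjusted p = 0.0064) for shActb_1. In EGFP it read -2.08 and -1.92, on the Mkl1 arrays -1.23 and -1.22, and on the Srf arrays -2.54 and -2.72, with differences of 0.78 ± 0.11 for Mkl1 (adjusted p = 0.00333) and -0.63 ± 0.11 for Srf (adjusted p = 0.00518), both under 2-fold. The shActb_2 call was lost with normexp background correction (0.79) and without shEGFP replicate 1 (0.99). The 4 leukocyte markers Ptprc, Cd68, Aif1 and Csf1r summed to 2.63 to 2.64 in shEGFP, 2.31 to 2.38 with shActb_1, 2.47 to 2.64 with shActb_2, 2.39 to 2.87 in EGFP, 3.58 to 3.60 with Mkl1 and 5.50 to 6.13 on the Srf arrays. Cd68 and Csf1r were called higher and Aif1 lower (-1.29) for Srf, Aif1 lower for Mkl1 and Ptprc lower (-1.02) for shActb_2, and their part in the Itgb2 values was not tested. Itgal and Itgam, α partners of Itgb2 in lymphocytes and myeloid cells, were not called at any of their probes, and the brightest Itgam probe differed by 0.55 for Srf where the other 2 probes differed by -0.47 and -0.45.

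Itgb8, which joins Itgav and activates latent TGF-β, was dim. It read -4.05 and -4.01 in EGFP, -4.77 and -6.09 on the Mkl1 arrays, and -4.93 and -5.41 on the Srf arrays. It read -4.75 and -4.57 with shEGFP, -5.31 and -6.09 with shActb_1, and -5.34 and -5.57 with shActb_2. Each treated array lay below its controls, with 1 of 2 arrays of each treatment well above background. The differences of -1.40 ± 0.43 (SE) for Mkl1 (adjusted p = 0.0553, limma), -1.14 ± 0.43 for Srf (adjusted p = 0.0909), -1.04 ± 0.42 for shActb_1 (adjusted p = 0.198) and -0.79 ± 0.42 for shActb_2 (adjusted p = 0.174) did not pass the test. The Srf difference was called without either Mkl1 array (adjusted p = 0.0288, limma). The Mkl1 difference of Itgb8 was -2.06 without Mkl1 replicate 1, a fit that kept only the dimmer Mkl1 array, at -6.09. It was called at -1.40 with the replicate block (adjusted p = 0.0344, limma) and with a variance trend and robust estimation (adjusted p = 0.048). Itgb8 entered these tests only through the control arrays, where it was the higher, so its calls are given as a description.

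**Figure D2:**
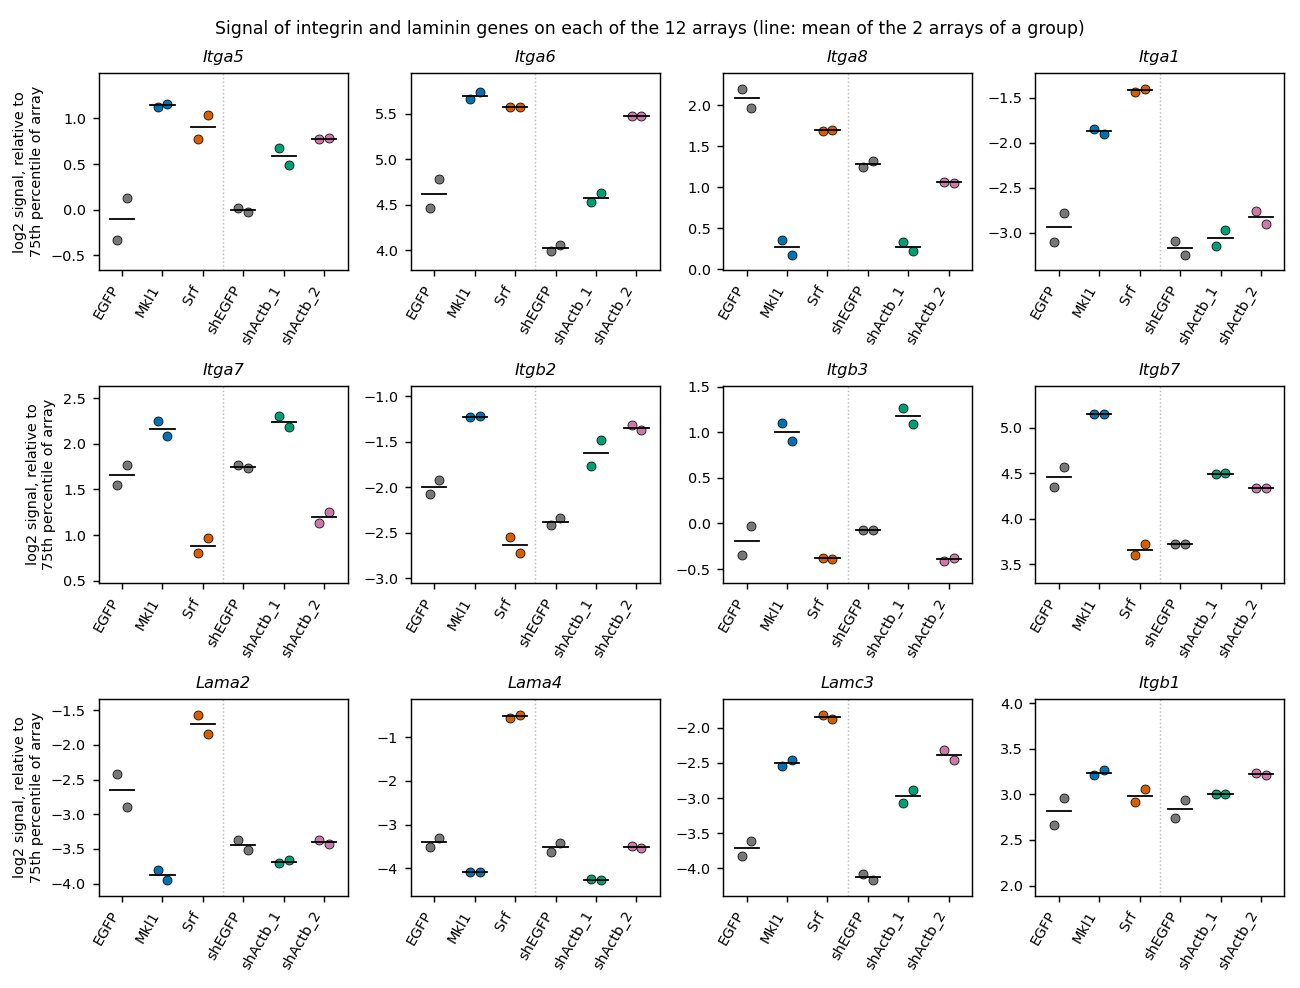
Log2 signal relative to the array's 75th percentile (vertical axis) of 12 genes on the 12 arrays, by group (horizontal axis), with the overexpression experiment left and the knockdown experiment right of the dotted line. Points are single arrays and lines are the mean of the 2 arrays. Lamc3 lies above control in all 4 treatments, Lama4 stands out on the Srf arrays at -0.55 and -0.48, and Itgb3 is high on the Mkl1 and shActb_1 arrays alone.

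The promoters of called members are shown for what they hold of the CArG box, the element that Srf binds. RefSeq windows of GRCm38.p6, from 250 bases before to 50 after the gene start, were at hand for 23 of the 37 member genes and were searched on both strands for the CArG box (CC, then 6 bases of A or T, then GG). The box stood in 2 of the 23, Lama2 and one of the 2 windows of Itgb6, where 1.81% of 27025 genes and 1.63% of 32851 windows held one. A match or its absence describes these letters only. Among the members called against a control, Itga1, Itga5, Itga8 and Lama2 had a window. Their windows follow, all on the minus strand and read 5′ to 3′, with the CArG box in capitals:
Lama2, chr10:27616893-27617192: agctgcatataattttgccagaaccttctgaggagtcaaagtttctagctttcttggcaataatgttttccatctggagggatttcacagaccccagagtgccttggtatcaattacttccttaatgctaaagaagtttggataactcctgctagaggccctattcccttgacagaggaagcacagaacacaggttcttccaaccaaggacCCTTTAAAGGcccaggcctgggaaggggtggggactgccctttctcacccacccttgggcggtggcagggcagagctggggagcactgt
Itga1, chr13:115101915-115102214: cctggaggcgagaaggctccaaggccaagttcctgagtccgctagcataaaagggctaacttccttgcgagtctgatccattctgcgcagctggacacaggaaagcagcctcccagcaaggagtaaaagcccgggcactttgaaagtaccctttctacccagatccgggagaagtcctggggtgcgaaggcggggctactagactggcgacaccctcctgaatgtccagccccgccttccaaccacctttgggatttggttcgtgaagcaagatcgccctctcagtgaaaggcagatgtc
Itga5, chr15:103366742-103367041: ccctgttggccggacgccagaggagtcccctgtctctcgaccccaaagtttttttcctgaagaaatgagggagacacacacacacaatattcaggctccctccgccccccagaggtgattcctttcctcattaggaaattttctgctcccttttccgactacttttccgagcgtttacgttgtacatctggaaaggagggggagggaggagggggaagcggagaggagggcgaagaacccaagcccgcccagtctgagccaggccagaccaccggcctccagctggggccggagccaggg
Itga8, chr2:12301895-12302194: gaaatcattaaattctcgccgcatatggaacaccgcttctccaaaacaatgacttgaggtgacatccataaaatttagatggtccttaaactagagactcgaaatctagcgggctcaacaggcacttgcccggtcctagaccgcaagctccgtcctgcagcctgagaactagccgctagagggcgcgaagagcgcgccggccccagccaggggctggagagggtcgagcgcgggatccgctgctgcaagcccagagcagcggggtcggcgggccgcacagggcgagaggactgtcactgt
In Lama2, which lay above EGFP on the Srf arrays and below it on the Mkl1 arrays, the box began 39 bases before the start. The windows of Itga1 and Itga5, called higher on the Srf and the Mkl1 arrays, and of Itga8, called lower on the Mkl1 arrays, held none.

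Among the members, the arrays labelled Srf and Mkl1 differed most at Lama4. Set directly against each other, 7 of 29 tested members were called, where 7.22% of all genes were (4.75% higher and 2.47% lower on the Srf arrays), with Lama4, Lama2 and Itga8 higher on the Srf arrays and Itga7, Itgb2, Itgb3 and Itgb7 higher on the Mkl1 arrays. Lama4 stood 3.57 ± 0.09 (SE) higher on the Srf arrays, which is 11.8-fold (adjusted p = 1.11e-06, limma), and Lama2 stood 2.17 ± 0.16 higher (4.51-fold, adjusted p = 9.98e-05) and 2.75 ± 0.17 higher at its second probe. Of the fibroblast markers in the same comparison, Lum was called higher on the Srf arrays by at least 17.8-fold (adjusted p = 1.5e-05, limma). It entered the test only through those arrays, where it was the higher, so its call is given as a description. Dcn was called higher there by 2.64 (adjusted p = 9.06e-07), while Col1a1 differed by 0.96 and Col1a2 by -0.65, short of the call rule. The part of these markers in the Lama4 and Lama2 differences was not tested. Itga8 stood 1.42 ± 0.10 higher (adjusted p = 6.24e-05). On the Mkl1 arrays Itga7 was higher by 1.28 (-1.28 ± 0.10, adjusted p = 0.000155), Itgb2 by 1.41 (-1.41 ± 0.11, adjusted p = 0.000121) and Itgb3 by 1.39 (-1.39 ± 0.12, adjusted p = 0.000176).

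Itgb7, a β subunit of lymphocyte homing receptors, was named after its values were seen. It read 4.35 and 4.56 in EGFP, 3.60 and 3.72 on the Srf arrays, and 5.15 on both Mkl1 arrays, so the treatments lay on opposite sides of the control, each by less than 2-fold (-0.79 ± 0.08 and 0.69 ± 0.08). The difference between them was -1.48 ± 0.08 (SE, adjusted p = 2.27e-05, limma). With shEGFP Itgb7 read 3.73 and 3.72, with shActb_1 4.49 and 4.50, and with shActb_2 4.33 and 4.34. The differences were 0.77 ± 0.08 for shActb_1 (adjusted p = 0.00153) and 0.61 ± 0.08 for shActb_2 (adjusted p = 0.00112). Itga5, Itga6 and Lamc3 differed between the Srf and Mkl1 arrays by -0.24 ± 0.15, -0.12 ± 0.10 and 0.65 ± 0.10, and of these Lamc3 alone passed the p threshold (adjusted p = 0.00287).

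The hairpins also differed from each other, though both target Actb. Of 29 members tested, 3 were called between them (Itgb3, Itga7 and Itga4), where 4.29% of all genes were (2.28% higher and 2.01% lower with shActb_2). Of the 28 members above background on all 12 arrays, 2 were called, Itgb3 and Itga7, where 2.88% of such genes were. Here shActb_2 lay on a slide of its own, so hairpin and slide cannot be told apart. Itgb3 was lower with shActb_2 than with shActb_1 by 1.57 (-1.57 ± 0.12 (SE), adjusted p = 0.000265, limma), and by 1.12 at its second probe (-1.12 ± 0.19, adjusted p = 0.00481). Itga7 was lower by 1.05 (-1.05 ± 0.10, adjusted p = 0.000688, limma), a call that was lost with normexp. Itga4, a subunit of the VCAM and fibronectin receptors of leukocytes and named after its values were seen, read -5.18 on both shActb_2 arrays at its brighter probe and was not well above background on any other array there, with shActb_2 at least 1.75-fold above shActb_1 (adjusted p = 0.0495, limma). It entered the test only through the shActb_2 arrays, where it was the higher, so its call is given as a description. The Itga4 call was lost in 10 of 12 fits with 1 array left out, and with normexp, quantile normalization, no filter on dim probes, the replicate block, a variance trend and probe averages. Itga6 was 0.90 ± 0.10 higher with shActb_2 (adjusted p = 0.00105), under 2-fold. Without shActb_1 replicate 1 or without shActb_2 replicate 1 the number of members called between the hairpins fell to 1, Itgb3, while the share of all probes called went from 5.03% to 4.10% and 7.22%.

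**Figure D3:**
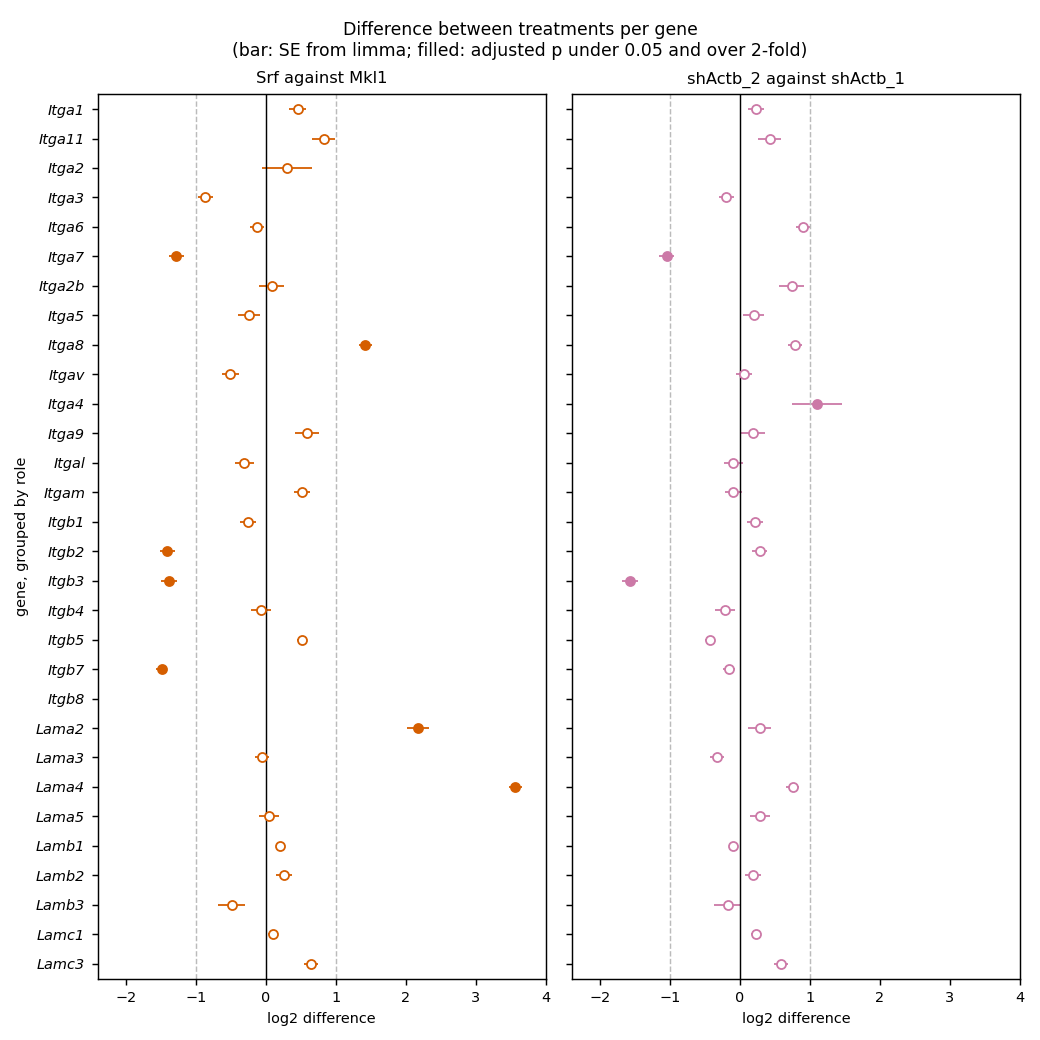
Direct differences of tested members between the arrays labelled Srf and Mkl1 (left) and between shActb_2 and shActb_1 (right), as log2 of the signal ratio on the horizontal axis, with genes ordered by role. Bars are standard errors from limma, dashed lines mark 2-fold and filled points were called changed, 7 on the left with Lama4 at 3.57, and 3 on the right with Itgb3 at -1.57.

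The Mkl1 effect was set against the mean effect of the hairpins in a single contrast, which shares no arrays between its sides. Of 31 members, 2 were called, where 1.01% of all genes were (0.602% higher and 0.404% lower). Itga8 fell further with Mkl1 by 1.19 (-1.19 ± 0.13 (SE), adjusted p = 0.0109, limma), and Lama2 by 1.12 (-1.12 ± 0.22, adjusted p = 0.0443) at its brighter probe, with -0.67 ± 0.22 at its second (adjusted p = 0.162). Itga1 stood at 0.84 ± 0.16 (adjusted p = 0.043), under 2-fold. For Itga5 and Itga6 the contrast was 0.56 ± 0.21 (adjusted p = 0.194) and 0.08 ± 0.14 (adjusted p = 0.805), and for Lamc3 -0.22 ± 0.13 (adjusted p = 0.409). The Lama2 call was lost in 11 of 12 fits with 1 array left out, and with normexp, no filter on dim probes, the compared arrays alone and probe averages. None of the members were called in this contrast without Mkl1 replicate 2 or without shEGFP replicate 1 (limma; 6 of 32 and 10 of 31 had an unadjusted p under 0.05), and 4 were called without EGFP replicate 2, where 0.187%, 0.276% and 3.09% of all probes were called, against 0.885% with all arrays.

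Partners of integrins and laminins were described by 4 lists: non-laminin ligands, basement membrane partners with non-integrin laminin receptors, cytoplasmic partners, and tetraspanins. Of 9 ligands tested, 2 were called higher and 1 lower for Srf, 1 higher and 1 lower for Mkl1, none for shActb_1 (limma; 5 had an unadjusted p under 0.05, as had 31.4% of all genes), and 1 higher and 1 lower for shActb_2, where 7.00%, 3.84%, 2.40% and 5.76% of all genes were called in these treatments. The list medians were 0.08, -0.08, -0.15 and -0.07. Tnc, an adhesive glycoprotein of neural stem cell niches, stood 2.83 ± 0.39 (SE) above EGFP on the Srf arrays (adjusted p = 0.00184, limma) and 1.41 ± 0.39 above it on the Mkl1 arrays (adjusted p = 0.0407), with EGFP above background on 1 of 2 arrays. It entered these tests only through the Srf and Mkl1 arrays, where it was the higher, so these calls are given as a description. Ccn2, a matricellular ligand of several integrins, rose by 1.28 ± 0.08 for Srf (adjusted p = 5.43e-05) and differed by -0.43 to -0.08 in the other treatments. Edil3, an RGD-containing ligand of Itgav receptors, fell by 1.02 for Srf (-1.02 ± 0.15, adjusted p = 0.00223), 1.17 for Mkl1 (-1.17 ± 0.15, adjusted p = 0.00215) and 1.18 for shActb_2 (-1.18 ± 0.15, adjusted p = 0.000933). Npnt, the ligand of Itga8, rose with shActb_2 by 1.09 ± 0.20 (adjusted p = 0.00421) and differed by -0.41 to -0.11 in the other treatments.

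Of 11 basement membrane partners, 2 were called higher and 1 lower for Srf, 2 higher for Mkl1, none for shActb_1 (limma; 6 had an unadjusted p under 0.05, as had 31.4% of all genes) and 1 higher for shActb_2, against the same 7.00%, 3.84%, 2.40% and 5.76% of all genes. The list medians were 0.12, 0.04, 0.18 and 0.30. Col4a1 and Col4a2, the chains of the collagen IV network that laminin sheets are linked to, stood 1.56 ± 0.19 and 1.60 ± 0.18 (SE) above EGFP for Srf (adjusted p = 0.00101 and 0.000772, limma) and 1.15 ± 0.19 and 1.12 ± 0.18 above it for Mkl1 (adjusted p = 0.00606 and 0.00586). For shActb_2 Col4a2 rose by 1.03 ± 0.18 (adjusted p = 0.00388) and Col4a1 differed by 0.77 ± 0.19 (adjusted p = 0.0147). Bcam, a receptor for Lama5, fell by 1.12 on the Srf arrays (-1.12 ± 0.15, adjusted p = 0.00184) and differed by -0.10 to 0.30 elsewhere.

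Of 12 cytoplasmic partners tested, among them talins, kindlins and Ilk, 1 was called, for Srf, against the same 7.00%, 3.84%, 2.40% and 5.76% of all genes called in the 4 treatments. Lims2, one of the PINCH proteins that bind Ilk, stood 3.36 ± 0.49 (SE) above EGFP on the Srf arrays (adjusted p = 0.00241, limma), and it differed by 1.61, 1.46 and 1.31 for Mkl1, shActb_1 and shActb_2 without passing the test (adjusted p = 0.0556, 0.119 and 0.0673). Its shActb_1 duplicates read -2.75 and -0.90. The fit takes 1 spread per probe over all groups, so this gap enters every SE of Lims2. On the EGFP arrays Lims2 read -3.31 and -3.61, and on the Mkl1 arrays -1.87 and -1.84. With shEGFP it read -3.19 and -3.37, and with shActb_2 -1.90 and -2.05. Lims1, the other PINCH protein, differed by -0.26 for Srf. No cytoplasmic partner was called for Mkl1, shActb_1 or shActb_2 (limma; 8, 6 and 8 of 12 had an unadjusted p under 0.05, as had 44.6%, 31.4% and 53.3% of all genes), and the list medians were 0.19, 0.51, 0.22 and 0.30. None of the 5 tetraspanins was called in any treatment (limma; 3, 3, 2 and 4 had an unadjusted p under 0.05, beside 47.3%, 44.6%, 31.4% and 53.3% of all genes), where 7.00%, 3.84%, 2.40% and 5.76% of all genes were called, with medians of 0.06 to 0.14.

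**Figure D4:**
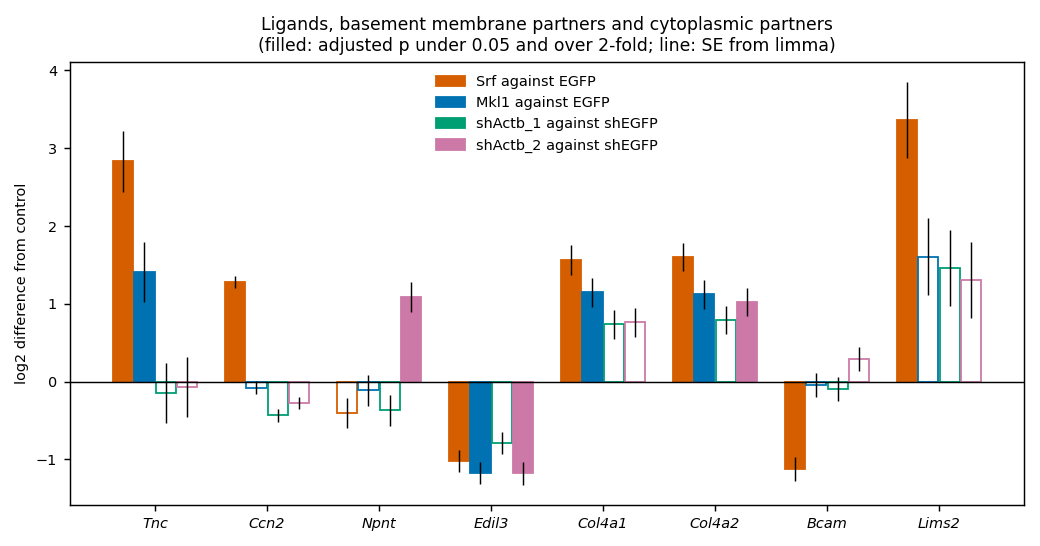
Difference from control (vertical axis, log2 of the signal ratio) of the 8 ligands, basement membrane partners and cytoplasmic partners called in at least 1 treatment. Bars are differences between means of 2 arrays, black lines are standard errors from limma, and filled bars were called changed: Tnc, Col4a1 and Col4a2 are filled for Srf and Mkl1, and Edil3 for Srf, Mkl1 and shActb_2.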

How the data were processed

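Total RNA from the 12 samples was labelled with cyanine 3 and hybridized to Agilent 1-colour arrays with 62976 features. With Agilent Feature Extraction (version 11.5.1.1 per the file headers) the authors obtained a background-subtracted signal intensity per spot, and they deposited these intensities together with a table of log2 values, which differed from log2 of the signal by a constant per array. The log2 of each processed signal was taken here, control and outlier spots were left out, spots of a probe were averaged and the array's 75th percentile was subtracted. Probes were named by accession through RefSeq (GRCm38.p6, names only), 28026 of 55681 in all.

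All 12 arrays were fitted with limma 3.58.1 in R 4.3.3, 1 mean per group, two-sided, after testing on simulated data. Where a gene had several probes, the one with the highest mean signal stood for it. Named were members called at any probe against a control, 12 main receptor subunits and chains in every case, and up to 4 called genes per partner list, with the other members given by range, except 1 gene that is not reported here. Members and lists were chosen with earlier results of these data known. Slide 1 held EGFP, Mkl1 and Srf, slide 2 shEGFP and shActb_1, and slide 3 shActb_2. Bounds ("at least") set the brighter group against the dimmest signals well above background. Alternatives were normexp (offset 50, on median spot signals), quantile normalization, the deposited table, other filters and thresholds, the compared arrays alone, blocks for replicate and slide, a variance trend, probe averages, and each array left out. The array format in the labels differs from the feature count, which matches that of the methods.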

Additional observations from a re-analysis of the deposited data

Results flagged for a closer look

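The 2 hairpins against Actb, each set against the same shEGFP arrays, gave different values at Itgb3 and Itga7 when tested against each other with limma. Itgb3 differed by -1.57 (shActb_2 minus shActb_1, log2) at its brighter probe and by -1.12 at its second. Itga7 differed by -1.05, a call that was lost with normexp. The dimmer probe of Lama2, given as a description, differed by at least 2.10-fold (a fitted 1.23). It was tested only through the shActb_2 arrays, where it was the higher, since neither shActb_1 array was well above background. The brighter Lama2 probe differed by 0.28 and was not called. Itga4, given as a description, differed by 1.10 (a bound of at least 1.75-fold) at its brighter probe, which was tested only because the shActb_2 arrays, where it was the higher, were well above background. Its call was lost in 10 of 12 fits with 1 array left out and without the filter on dim probes. The slide of the shActb_2 arrays and the hairpin cannot be told apart. Groups of 2 arrays allow no search for single outlying arrays.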

How the results depend on the processing

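Precision is limited by 2 arrays per group, and dim probes (Itgb8, Itga4, the second probes of Lama2 and Lama3) carry the least. Every member called against a control kept its direction there under each alternative run. For Mkl1 the count of 7 members became 4 with normexp and 0 with the EGFP and Mkl1 arrays alone (limma; 20 of 30 had an unadjusted p under 0.05), where the share of all probes called went from 2.78% to 1.03% and 0.352%. Between the hairpins the count of 3 became 1 with normexp, where 1.18% of all probes were called. The contrast of Mkl1 with the hairpins gave 1 in place of 2 with normexp, without a filter on dim probes, with the compared arrays alone and with probe averages. The matching shares of all probes called were 0.393%, 0.248% and 0.742%, against 0.885% in the main fit. With probe averages the share was 0.756%, taken over gene averages and unnamed probes together.

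Without the fold threshold the counts were 15 for Srf, 19 for Mkl1, 11 for shActb_1, 11 for shActb_2, 17 for Srf against Mkl1 and 11 between the hairpins, where 33.9%, 29.0%, 14.0%, 44.5%, 34.4% and 33.4% of all genes passed, so the shActb_2 count of 11 of 30 is below the share over all genes. At a fold over 1.5 they were 10, 12, 6 and 6 for the 4 treatments, 10 for Srf against Mkl1 and 8 between the hairpins, where 15.1%, 10.9%, 5.97%, 16.5%, 15.5% and 11.9% of all genes passed. Leaving out each array in turn gave 4 to 5 for Srf, 4 to 8 for Mkl1 (4 without EGFP replicate 1), 2 to 3 for shActb_1, 2 to 4 for shActb_2, 7 for Srf against Mkl1, 1 to 3 between the hairpins and 0 to 4 for the contrast of Mkl1 with the hairpins. In the same fits the share of all probes called was 4.65% to 7.81%, 1.98% to 5.90%, 1.33% to 1.78%, 4.79% to 9.44%, 4.58% to 5.14%, 4.10% to 7.22% and 0.187% to 3.09%. Where that left 1 array in a group, it was assumed to vary like the others.

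Whether the replicate numbers pair the samples was not settled. Deviations of same-numbered arrays correlated at -0.002 to 0.26 within an experiment and at -0.14 to 0.15 between experiments. With the replicate block the counts were 4 for Srf, 8 for Mkl1 (Itgb8 added), 3 and 3 for the hairpins, 7 for Srf against Mkl1, 2 between the hairpins (Itga4 not called) and 2 for the contrast, where 5.73%, 2.86%, 1.63%, 6.44%, 5.04%, 5.12% and 0.847% of all probes were called. A slide term leaves Srf, Mkl1 and shActb_1 unchanged by construction and could not be fitted for shActb_2.

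Values that changed sign were all uncalled. Under quantile normalization, Lamc1 was -0.020, Lamb1 -0.078 and the second Lama2 probe 0.013 for shActb_2, and Lama3 was -0.010 for Srf. With probe averages, Itgav was 0.094 and Lama3 -0.25 for Srf, Lama3 -0.56 for Mkl1 and Lama2 -0.079 for shActb_2. With normexp, Lama4 was -0.032 for shActb_2. With 1 array left out, Lama4 ranged from -0.098 to 0.11 for shActb_2, Itgav from -0.092 to 0.22 for shActb_1 and from -0.033 to 0.28 for shActb_2, Lama3 from -0.007 to 0.12 for Srf, and Lama2 from -0.033 to 0.11 for shActb_2. The cause was not tested.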
